A study of Mus musculus with 96 samples.

Results

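The daily time course of liver hepatocytes lacking Scap was described from 12 RNA sequencing libraries, 3 at each of zeitgeber time (ZT, hours after lights on) ZT4, ZT10, ZT16 and ZT22. They are the ScapKO hepatocyte libraries of a series of 96 libraries of mouse hepatocytes and liver macrophages, and they were chosen by their titles. All 12 came from male C57BL/6J mice kept for 4 weeks on a fattening diet rich in fat and sucrose, in a light cycle with lights off at ZT12. ScapKO is a deletion of Scap aimed at the hepatocytes of adult mice. In the methods of the study the deletions were made by floxed alleles and a virus whose TBG promoter drives the Cre recombinase in hepatocytes, and the virus given for the deletion of Scap alone is not described apart. No library of a mouse with intact Scap was normalized together with these 12, so the effect of the deletion itself could not be tested here. Their cell type field reads liver macrophage and disagrees with the titles, which give Hep, and the grouping here goes by the titles. The methods of the study speak of biological replicates, while the labels do not say whether each library came from a mouse of its own. The p-values measure the spread between these libraries, which may be in part technical.

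SCAP is the escort protein that carries the SREBP transcription factors from the endoplasmic reticulum to the Golgi, where they are cut and released to switch on genes of cholesterol and fatty acid synthesis, and INSIG proteins hold the complex back when sterols are plentiful. The hepatocyte clock is a feedback loop in which BMAL1 (the product of Arntl) with CLOCK or NPAS2 drives the Per, Cry, Nr1d1 and Nr1d2 genes, whose products then repress the loop, and the REV-ERB receptors encoded by the latter pair repress Arntl. In liver, this loop and the daily rhythm of feeding both time lipid, bile acid and glucose metabolism. The data ask which transcripts still changed over the day in hepatocytes of fatty liver once this escort protein was targeted.

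Values are RPKM, reads per kilobase of transcript and per unit of library size, multiplied by 10 (RPKTM), quantile normalized by the authors within the table of these 12 libraries. For each gene the transcript of highest mean level was taken, and it was tested where at least 3 libraries exceeded 5 RPKTM, which kept 12724 of 25095 genes. Differences are on the log2(RPKTM + 1) scale, given with their standard error (SE) and with p-values of limma's moderated tests adjusted by Benjamini and Hochberg over all genes tested, with a threshold of 0.05. This scale understates the change of low genes, and the sequencing depth behind each value is unknown. Unless a contrast is named, the adjusted p beside a difference is from limma's F test of any difference between the times. That p does not test the given pair of times alone.

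Scap (chr9:110235792-110287453 of mouse build mm9, plus strand) was measured at 363, 351 and 372 RPKTM at ZT4, at 309, 379.6 and 273 at ZT10, at 321, 359 and 309 at ZT16, and at 205, 1006 and 339 at ZT22. One ZT22 library, replicate 2, lay far above the other 11, which ranged from 205 to 379.6 RPKTM, and the 4 times overlapped. The highest and the lowest time mean differed by 0.37 ± 0.39 on the log2 scale (SE, adjusted p = 0.93, limma). A transcript that has lost part of its exons can still be counted, so a level above 0 does not measure how much of the gene was deleted. The hepatocyte markers summed to between 1036497 and 1096873 RPKTM in 11 libraries, with all 8 of 8 above 5 RPKTM in at least 3 libraries. In each of these 11, Alb held the top value of the column, which quantile normalization fixes at 8.62% of the column sum. This narrows the range of the sums. These are levels of a liver cell preparation dominated by hepatocyte transcripts, as the titles state and the cell type field does not.

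A pair of ZT22 libraries stood apart from the rest. In replicate 2, the summed markers of macrophages were 3713 RPKTM, against 541 to 1594 in the other 11 libraries. Endothelial markers summed to 10814 there, against 1527 to 3017, and stellate cell markers to 3731, against 766 to 2251. The targets of SREBP were also high in this library. Scd1, the stearoyl-CoA desaturase, was at 75737 RPKTM against 189.7 to 2932 in the other 11, and Sqle, the squalene epoxidase of cholesterol synthesis, was at 466 against 10.9 to 63.3. In replicate 1 of ZT22, the hepatocyte markers summed to 304608 RPKTM. The ribosomal RNA Rn45s held the fixed top value there, 8.62% of the column sum, which Alb held in the other 11 libraries. Alb was at 1.86% in replicate 1, so the marker sum fell with the rank of Alb. The mean log2(RPKTM + 1) of the 8 markers was 13.83 in replicate 1, against 14.34 to 14.70 in the other 11. Lars2 took 1.46% of the column sum in replicate 1, while in each of the other libraries Lars2 took at most 0.0190%. The transcript levels of replicate 1 correlated with those of the others at a median r of 0.925, replicate 2 at 0.903, and each of the other 10 at 0.949 or above. In bulk samples, fewer cells of a type and less RNA per cell cannot be told apart. The part of other cells, RNA quality or incomplete deletion in these 2 libraries was not tested, and results are given with all 12 libraries and without replicate 2, or without both where that bears on them.

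**Figure D1:**
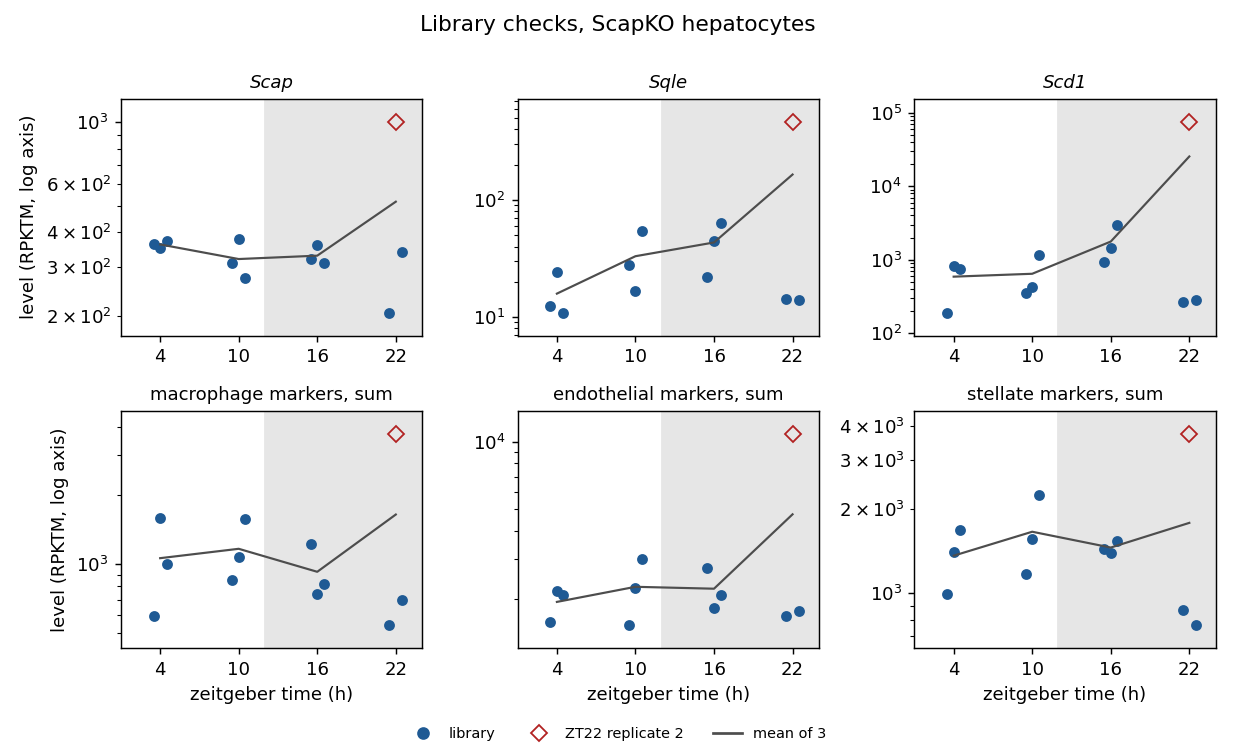
Levels in the 12 libraries of Scap, Sqle and Scd1 and summed levels of macrophage, endothelial and stellate cell markers (RPKTM, log axis) against zeitgeber time, with points for libraries, a solid line through the arithmetic means of 3 libraries, a red diamond for ZT22 replicate 2, and the dark phase shaded. ZT22 replicate 2 sits above all other libraries in each panel, at 1006 RPKTM for Scap and 75737 for Scd1.

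With all 12 libraries, 164 of 12724 genes differed between the 4 times (1.29%), in a limma F test of any difference. Among these 164 genes the highest time mean was at ZT22 for 58, at ZT4 for 43, at ZT16 for 35 and at ZT10 for 28. The lowest was at ZT10 for 61, at ZT4 for 50, at ZT22 for 35 and at ZT16 for 18. The median difference between the highest and the lowest time mean was 1.51 on the log2 scale over the 164 genes, with a range from 0.63 to 5.52, against 0.52 over all genes tested. The count rested on single libraries. Without ZT22 replicate 2 it was 530 of 12625 genes (4.20%), and 162 of the 164 genes were among them (98.8% of the 164 and 30.6% of the 530). Of the 164 genes, 42 passed in each of the 12 fits that left out 1 library.

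The transcripts of the clock loop were the group in which calls were most frequent among the lists examined with all 12 libraries. Of 19 clock and clock output genes, 12 differed between the 4 times (63.2%, against 1.29% of all genes tested), and the median difference between the highest and the lowest time mean over the 19 was 1.97 on the log2 scale, against 0.52 over all genes tested. Without ZT22 replicate 2 the count was again 12 (63.2%, against 4.20%), of which 11 were shared, and without both ZT22 libraries that stood apart it was 11 (57.9%, against 3.88%). In every fit that left out 1 library, 9 of the 12 genes passed, among them Arntl, Per2, Per3, Cry1, Nr1d1, Nr1d2, Dbp and Tef. Without the mean-variance trend of limma, a setting under which 12 genes passed over the whole table, Arntl, Nr1d1, Nr1d2, Dbp and Tef still passed, while Per2, Per3 and Cry1 did not (adjusted p = 0.0807, 0.0543 and 0.0555).

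Among the activators of the loop, Arntl (chr7:120350979-120457640, plus strand) was measured at 69.0, 17.4 and 56.9 RPKTM at ZT4, at 6.83, 9.87 and 17.5 at ZT10, at 125, 105 and 109.6 at ZT16, and at 226, 199.7 and 199.7 at ZT22. All 3 ZT22 libraries lay above every other library, and ZT10 and ZT4 overlapped at the low end. ZT22 exceeded ZT10 by 4.17 ± 0.43 on the log2 scale (SE, adjusted p = 0.00162 for any difference, limma, and 4.65e-04 without ZT22 replicate 2). Clock, the partner of BMAL1, was at 331 to 458 RPKTM at ZT10 and at 764 to 930.3 at ZT22, a difference of 1.21 ± 0.21 (adjusted p = 0.0283). Its call was lost when ZT4 replicate 1, ZT10 replicate 1 or 2, or ZT16 replicate 2 or 3 was left out, with adjusted p from 0.0557 to 0.139. Npas2, a paralog of Clock that can take its place, was at 14.5, 0 and 10.7 RPKTM at ZT4, at 0, 1.1 and 0 at ZT10, at 4.54, 3.24 and 0.700 at ZT16, and at 26.4, 140.3 and 51.4 at ZT22. The ZT22 libraries were the 3 highest, and Npas2 was listed at 0 in some of the others. Its difference passed with 12 libraries (adjusted p = 0.0381) and not without ZT22 replicate 2 (0.0558), and the call held in only 3 of 12 fits that left out 1 library, with an adjusted p of up to 0.114 in the rest.

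Among the repressors of the loop, Per2 (chr1:93312559-93355905, minus strand) was at 93.4, 181 and 159.5 RPKTM at ZT4, at 314, 393 and 310.0 at ZT10, at 299, 498 and 504 at ZT16, and at 132, 161 and 157 at ZT22. The ZT10 and ZT16 libraries all lay above those of ZT4 and ZT22. ZT16 exceeded ZT4 by 1.6 ± 0.25 (adjusted p = 0.00811). Per3 peaked earlier by its means, with 34.5, 146 and 89.6 RPKTM at ZT4, 299, 384 and 286 at ZT10, 128, 192 and 259 at ZT16, and 34.2, 15.9 and 23.8 at ZT22. All ZT10 libraries were above and all ZT22 libraries below every other library, and the 2 times differed by 3.71 ± 0.43 (adjusted p = 0.00287). Cry1, whose protein is the later-acting repressor, was at 121, 51.4 and 53.9 RPKTM at ZT4, at 75.9, 85.5 and 50.8 at ZT10, at 333, 274 and 226 at ZT16, and at 249, 183 and 311 at ZT22. The 6 libraries of ZT16 and ZT22 lay above the 6 of ZT4 and ZT10, with ZT16 above ZT10 by 1.97 ± 0.32 (adjusted p = 0.00600). Per1 and Cry2 did not pass (adjusted p = 0.679 and 0.307), and their libraries ranged from 69.9 to 271 and from 168 to 279 RPKTM.

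The REV-ERB receptor genes were high in the light phase. Nr1d1 (chr11:98629246-98636691, minus strand), which encodes REV-ERBα, was at 258, 399 and 641 RPKTM at ZT4, at 274, 199 and 225 at ZT10, at 33.2, 40.3 and 47.4 at ZT16, and at 68.6, 29.2 and 34.9 at ZT22. The 6 light-phase libraries lay above the 6 dark-phase libraries, and ZT4 exceeded ZT16 by 3.31 ± 0.34 (adjusted p = 5.33e-04). Nr1d1 overlaps Thra on the other strand over 1075 bases, and whether strand was used in counting is not stated. Nr1d2, which encodes REV-ERBβ, was at 517, 742 and 513 RPKTM at ZT4, at 581, 658 and 622 at ZT10, at 245, 331 and 304 at ZT16, and at 147, 121 and 83.2 at ZT22. Its light-phase libraries lay above those of ZT16, and these above those of ZT22. ZT10 exceeded ZT22 by 2.43 ± 0.21, with the smallest adjusted p of all genes tested (5.09e-04). Rora, which encodes a receptor that activates Arntl, ranged from 663 to 1177 RPKTM and did not pass (adjusted p = 0.362).

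Among the output factors, Dbp (chr7:52960617-52965573, plus strand), a PAR bZIP activator, was at 75.7, 379.8 and 181 RPKTM at ZT4, at 437, 334 and 396 at ZT10, at 22, 43.5 and 63.5 at ZT16, and at 9.87, 7.67 and 18.4 at ZT22. Its ZT22 libraries lay below all others, and ZT10 exceeded ZT22 by 4.99 ± 0.50 (adjusted p = 0.00161). Dbp overlaps Sphk2 on the other strand over 741 bases. Tef, another factor of this family, was at 1040.1 to 1353 RPKTM at ZT10 and 262 to 326 at ZT22, a difference of 2.01 ± 0.20 (adjusted p = 0.00186), while Hlf, the third, did not pass (adjusted p = 0.238, from 236 to 549.6 RPKTM). Nfil3, a repressor that binds the same DNA element, ran the other way, with 98.4, 124 and 124 RPKTM at ZT10 and 244, 672 and 444 at ZT22, a difference of 1.86 ± 0.30 (adjusted p = 0.0171), and its call was lost without ZT10 replicate 1 or 2 (adjusted p from 0.0583 to 0.0750). Ciart, a repressor of BMAL1, missed the threshold with 12 libraries (adjusted p = 0.0731) and passed without ZT22 replicate 2 (0.0372). It was at 62.0 to 78.5 RPKTM at ZT10 and at 6.94 to 10.7 at ZT22. Bhlhe40 and Bhlhe41, which repress at E-boxes, did not pass (adjusted p = 0.543 and 0.132). In ZT22 replicate 2, the library with high SREBP targets, Arntl at 199.7 and Dbp at 7.67 RPKTM were close to the other 2 ZT22 libraries, while Npas2 at 140.3 and Nfil3 at 672 lay above both of them.

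**Figure D2:**
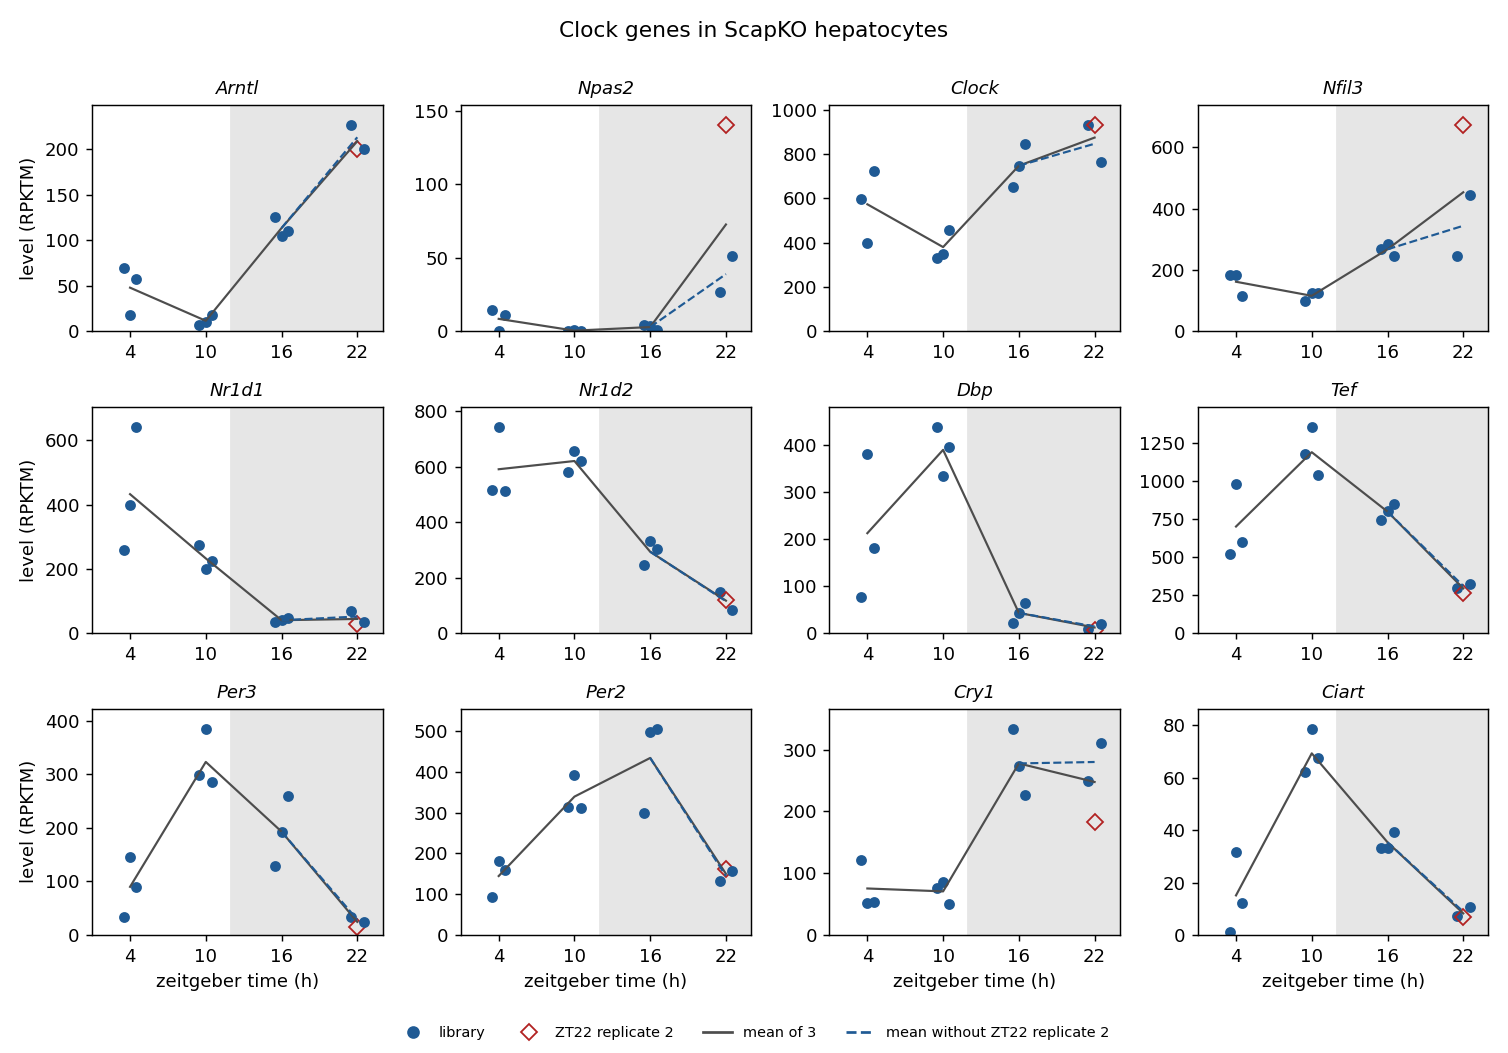
Levels of 12 clock and output genes (RPKTM, linear axes) against zeitgeber time, with points for the 12 libraries, a solid line through the arithmetic means of the 3 libraries of a time, a dashed line through the means without ZT22 replicate 2 (red diamond), and the dark phase shaded. Arntl is highest at ZT22 (199.7 to 226 RPKTM), Nr1d1 at ZT4 (258 to 641), and Dbp and Per3 at ZT10.

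Promoter sequences of these genes are shown because BMAL1 binds the E-box (CACGTG) and the DBP family the D-box (TTANGTAA), so that a reader can see where these letters stand. Both strands of the 250 bases before each start were searched in RefSeq sequences of build GRCm38.p6, for which 16 of 19 clock genes matched. The E-box letters were in 5 of 16 genes (31.2%, namely Bhlhe41, Ciart, Cry1, Per1 and Tef), against 6.86% of all 27025 genes with such a window. The D-box letters were in 1 (Per3, 6.25%), against 2.44%. Of the 10011 tested genes with such a window, 9.85% held the E-box letters and 1.69% the D-box letters. The ROR response element and the sterol regulatory element (TCACNCCAC) were each in 0 of the 16 clock genes. Over all genes with a window their shares were 0.396% and 1.22%, so 0 matches in 16 genes do not set the list apart. A match is a description of the letters and not a measured site. Capitals mark the E-boxes in the first 4 stretches of 80 bases and the D-boxes in that of Per3, each read 5′ to 3′ on the strand of its gene, at chr3:95882266-95882345 (minus), chr10:85185072-85185151 (minus), chr15:81802509-81802588 (plus), chr11:69098746-69098825 (plus) and chr4:151044804-151044883 (minus).
Ciart: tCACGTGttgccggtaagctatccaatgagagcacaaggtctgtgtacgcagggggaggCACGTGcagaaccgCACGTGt
Cry1: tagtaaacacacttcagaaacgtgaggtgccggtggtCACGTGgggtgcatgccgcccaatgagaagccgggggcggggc
Tef: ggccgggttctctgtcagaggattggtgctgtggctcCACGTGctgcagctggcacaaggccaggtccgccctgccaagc
Per1: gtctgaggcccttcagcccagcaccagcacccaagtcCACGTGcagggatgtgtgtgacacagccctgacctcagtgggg
Per3: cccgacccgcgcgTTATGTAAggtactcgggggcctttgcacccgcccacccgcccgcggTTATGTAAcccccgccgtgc

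Of these 5 genes, Per3, Tef and Cry1 differed between the times with all 12 libraries, Ciart without ZT22 replicate 2, and Per1 in neither fit. Per3, with a pair of D-box matches, was highest at ZT10 together with Dbp and Tef. Cry1, with 1 E-box match, was highest at ZT16, while Ciart and Tef, with 3 and 1 in the stretches shown, were highest at ZT10. The same letters stood at genes with different peak times.

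Set beside the Control hepatocytes of the series, which were normalized in another table, 14 of 19 clock genes had their highest time mean at the same time. Per2, Cry2 and Bhlhe40 were highest at ZT10 in Control and at ZT16 in ScapKO. Per1 was highest at ZT16 in Control and ZT4 in ScapKO, and Rora at ZT16 and ZT22. The share over all genes is not given here. These peak times are a description, since levels and their spread cannot be compared between tables normalized apart.

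The largest changes among the 164 genes were read off for each peak time, with 6 genes each whose highest mean exceeded 20 RPKTM. Among those highest at ZT4, besides Nr1d1, were Pfkfb3, a phosphofructokinase-2 that raises the glycolytic activator fructose-2,6-bisphosphate, Slc25a30, a mitochondrial carrier, Onecut1, the hepatocyte transcription factor HNF6, Clec2h, a C-type lectin, and Derl3, a protein of endoplasmic reticulum-associated degradation. Pfkfb3 was at 143, 349 and 341 RPKTM at ZT4, at 185, 197 and 121 at ZT10, at 40, 55.0 and 50.9 at ZT16, and at 29.2, 61.4 and 83.2 at ZT22. The light-phase libraries all exceeded the dark-phase ones, with ZT4 above ZT16 by 2.39 ± 0.39 (adjusted p = 0.0104), and the call held in all 12 fits that left out 1 library, and was lost with no filter on low values (0.0587) or without the mean-variance trend (0.0866). Slc25a30 was at 628, 469 and 357 RPKTM at ZT4 and at no more than 166 at any other time, a difference of 2.23 ± 0.37 from ZT16 (adjusted p = 0.0150, and up to 0.0975 without ZT4 replicate 1 or 2). Onecut1 was at 185 to 286 RPKTM at ZT4 against 36.3 to 86.3 at ZT16 (2.06 ± 0.35, adjusted p = 0.0263). Clec2h was at 89.3 to 137 against 14.5 to 19.6 RPKTM (2.62 ± 0.45, adjusted p = 0.0263). Derl3 was at 17.9 to 39.6 RPKTM at ZT4 and listed at 0, 2.81 and 0 at ZT22 (adjusted p = 0.0185). These last 3 calls held in 5, 3 and 8 of 12 such fits, with adjusted p of up to 0.142, 0.126 and 0.0676 in the rest, and all 3 held without ZT22 replicate 2.

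Among the genes highest at ZT10, besides Dbp, Per3 and Nr1d2, were Wee1, the kinase that holds cells before mitosis, Usp2, a deubiquitinating enzyme, and Klf16, a zinc finger factor. Wee1 was at 12.9, 59.0 and 34.0 RPKTM at ZT4, at 198, 182 and 121 at ZT10, at 89.6, 114 and 159 at ZT16, and at 51.2, 24.7 and 36.7 at ZT22. All ZT10 and ZT16 libraries lay above those of ZT4 and ZT22, with ZT10 above ZT4 by 2.42 ± 0.44 (adjusted p = 0.0189). Usp2 was likewise higher in all ZT10 and ZT16 libraries than in those of ZT4 and ZT22, at 323 to 508 and 376 to 417 RPKTM at ZT10 and ZT16, against 64.3 to 195 at ZT4 and 41.7 to 192 at ZT22 (adjusted p = 0.0292). Klf16 was at 16.4 to 25.5 RPKTM at ZT10 and at 0, 7.97 and 0 at ZT22, just inside the threshold (adjusted p = 0.0499). The 3 calls held in 7, 4 and 1 of 12 fits that left out 1 library, with adjusted p of up to 0.0878, 0.0994 and 0.140 in the rest, and passed without ZT22 replicate 2 at 0.00646, 0.00273 and 4.62e-04.

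At ZT16, Slc16a5, a monocarboxylate transporter, was among the largest changes. It was at 35.0, 34.5 and 38.5 RPKTM at ZT4, at 68.1, 73.7 and 126 at ZT10, at 283, 182 and 248 at ZT16, and at 93.4, 81.9 and 77.0 at ZT22. Its ZT4 libraries were below and its ZT16 libraries above all others, a difference of 2.66 ± 0.26 (adjusted p = 0.00162), and the call held in all 12 fits that left out 1 library. Cyp2b10, the cytochrome P450 that the receptor CAR induces, was at 8.69, 18.1 and 6.94 RPKTM at ZT4, at 2.69, 13.2 and 1.22 at ZT10, at 72.3, 89.5 and 46.0 at ZT16, and at 35.7, 75.7 and 37.0 at ZT22. The dark-phase libraries all exceeded the light-phase ones (ZT16 above ZT10 by 3.80 ± 0.61, adjusted p = 0.0135, and 0.0583 without ZT10 replicate 1). G0s2, the inhibitor of adipose triglyceride lipase, was at 124, 107 and 319 RPKTM at ZT4, at 456, 474 and 814 at ZT10, at 629.8, 961 and 1121 at ZT16, and at 1269, 309.9 and 899.6 at ZT22 (ZT16 above ZT4 by 2.43 ± 0.47, adjusted p = 0.0499). ZT4 and ZT16 did not overlap, and replicate 2 was the lowest of the ZT22 libraries, without which the highest mean was at ZT22 (adjusted p = 0.00165). Id1, an inhibitor of helix-loop-helix factors, was at 52.2 to 59.8 RPKTM at ZT16 and 3.0 to 15.6 at ZT22 (adjusted p = 0.0474). Hapln1, a matrix link protein, was at 15.3 to 46.8 at ZT16 and 0.310 to 4.54 at ZT4 (adjusted p = 0.0356). The calls of G0s2, Id1 and Hapln1 held in 3, 3 and 5 of 12 such fits, with adjusted p of up to 0.229, 0.174 and 0.146 in the rest.

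At ZT22, Elovl3 (chr19:46206389-46210184, plus strand), an elongase of very long chain fatty acids, was among the largest changes beside Arntl and Npas2. It was at 1833, 269 and 1262 RPKTM at ZT4, at 218, 231 and 224 at ZT10, at 2828, 1593 and 1561 at ZT16, and at 4457, 3648 and 4194 at ZT22. Its ZT22 libraries exceeded and its ZT10 libraries fell short of all others, a difference of 4.18 ± 0.49 (adjusted p = 0.00341). Pitx3, which ends on the other strand with an overlap of 9 bases with Elovl3, was at 3.0 to 5.53 RPKTM at ZT10 and 63.3 to 107 at ZT22 (4.13 ± 0.45, adjusted p = 0.00237). Reads over these 9 bases cannot be told apart where strand is not used. Slc34a2, a sodium-phosphate cotransporter, was at 1.71, 4.95 and 3.24 RPKTM at ZT4, at 0, 3.24 and 1.53 at ZT10, at 6.94, 19.6 and 11.3 at ZT16, and at 56.0, 52.5 and 38.5 at ZT22. The ZT22 libraries lay above all others (adjusted p = 0.00706). These 3 calls held in all 12 fits that left out 1 library. That of Elovl3 was lost without the mean-variance trend (adjusted p = 0.0555), and that of Slc34a2 with a pseudocount of 0.1 (0.0510) or no filter on low values (0.0527). Cdcp1, a membrane protein, was at 15.6 to 47.6 RPKTM at ZT22 and listed at 0 in all ZT16 libraries (adjusted p = 0.0482), a call that held in 2 of 12 such fits (up to 0.145 in the rest) and was lost without both ZT22 libraries that stood apart (0.0975).

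**Figure D3:**
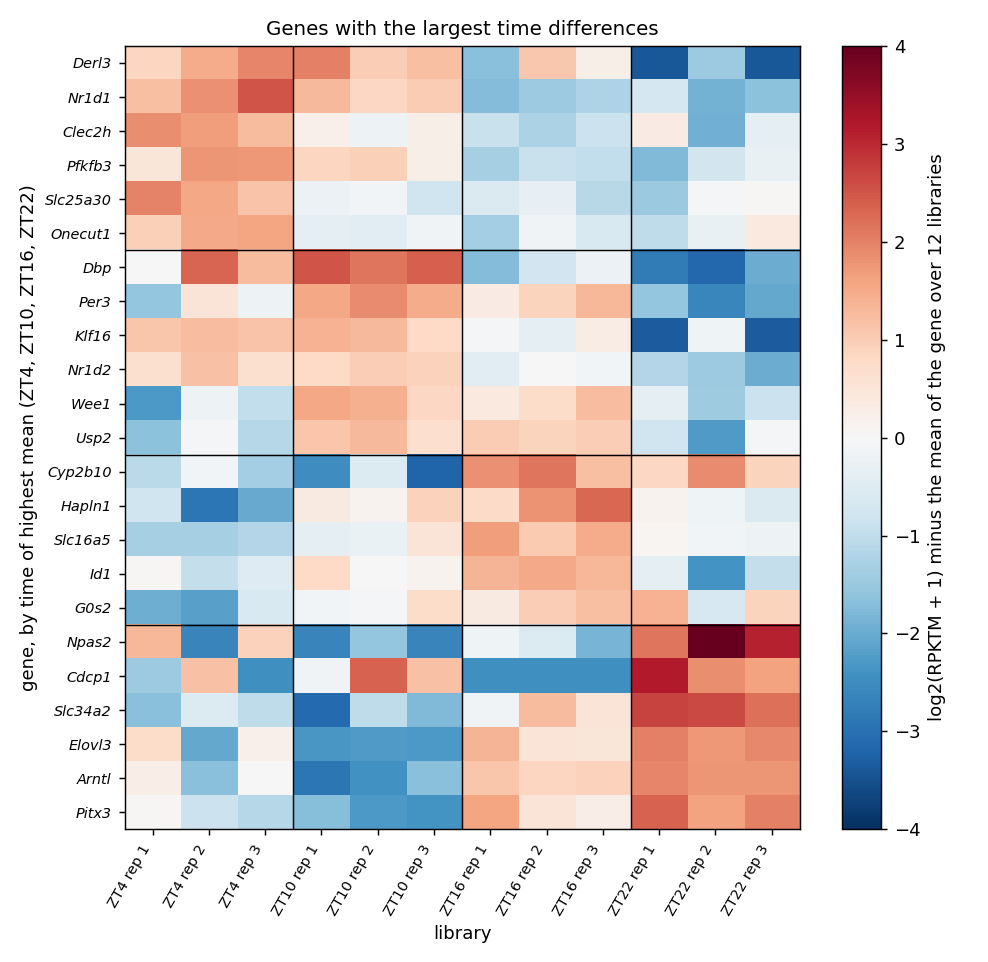
Heat map of genes with the largest changes, up to 6 for each time with the highest mean, in columns for the 12 libraries ordered by time, coloured by log2(RPKTM + 1) minus the mean of that gene. All 3 ZT22 libraries lie above the mean of the gene for Arntl, Elovl3 and Slc34a2 and below it for Dbp, Per3 and Nr1d2, while Klf16 and G0s2 vary within ZT22.

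For times 12 h apart, ZT16 against ZT4 compared the middle of the dark phase with that of the light phase. With all 12 libraries, 69 genes were higher at ZT16 (0.542%) and 46 lower (0.362%), in limma contrasts. Of 19 clock genes, 3 rose, Cry1 and Per2 among them, and 2 fell, Nr1d1 by 3.31 ± 0.34 (adjusted p = 6.51e-04) and Nr1d2 by 1.0 ± 0.21 (0.0451). Slc16a5 rose by 2.66 ± 0.26 (adjusted p = 5.80e-04), Asl of the urea cycle by 1.21 ± 0.18 (0.00758) and Pklr, the liver pyruvate kinase, by 1.17 ± 0.16 (0.00567). Hspa5 fell by 1.3 on the log2 scale (SE 0.17, adjusted p = 0.00365). The count of 115 genes in both directions was 12 without ZT16 replicate 3 and 343 without ZT22 replicate 2, of which 206 were higher (1.63%) and 137 lower (1.09%).

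ZT22 against ZT10 compared the end of the dark phase with the end of the light phase. With all 12 libraries, 84 genes were higher at ZT22 (0.660%) and 61 lower (0.479%). Of 19 clock genes, 5 rose (Arntl, Clock, Npas2, Cry1 and Nfil3) and 6 fell (Per2, Per3, Nr1d1, Nr1d2, Dbp and Tef). Without ZT22 replicate 2, the counts over all genes were 175 higher (1.39%) and 172 lower (1.36%), and 7 clock genes fell, with Ciart added. The share of higher calls was 57.9% with all libraries, 37.3% of 547 calls without ZT22 replicate 3, and 43.9% with the mean level of macrophage markers as a covariate. Without ZT10 replicate 1, 30 genes passed.

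The genes of lipid synthesis depended on 1 library. With all 12 libraries, 0 of 17 tested genes of fatty acid and triglyceride synthesis and 0 of 22 of cholesterol synthesis and uptake passed the F test of limma (against 1.29% of all genes), and Hmgcs1 and Pnpla3 of these lists were too low to be tested. In ZT22 replicate 2, the level exceeded that of all other 11 libraries for 20 of 22 cholesterol genes (90.9%) and 10 of 17 fatty acid and triglyceride genes (58.8%), against 22.1% of all genes tested. Its level was 3.77 times the median of the other 11 for the median cholesterol gene and 2.48 times for the median fatty acid and triglyceride gene, against 0.92 times over all genes. The same library held the highest levels of Scap and of the macrophage, endothelial and stellate markers. Whether these values share a source was not tested.

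Without that library, 11 of 17 fatty acid and triglyceride genes differed between the times (64.7%, against 4.20% of all 12625 genes), with a median difference of 1.19 between the highest and the lowest time mean, against 0.51 over all genes. The library was singled out in part by its high levels of lipid synthesis genes. That choice bears on this share and on that of the cholesterol list. Of the 11 genes, 5 were highest at ZT10 and 4 at ZT16, while 6 were lowest at ZT22 and 5 at ZT4. Fasn (chr11:120667272-120685861, minus strand), the fatty acid synthase, was at 482, 582 and 622 RPKTM at ZT4, at 1185, 1250.2 and 1337 at ZT10, at 766, 1208 and 1424 at ZT16, and at 194, 7006 and 508 at ZT22. The ZT10 libraries lay above those of ZT4, and the ZT22 libraries held both the lowest and the highest value of the 12. Without replicate 2, ZT22 was below ZT10, with a difference of -2.00 ± 0.31 (adjusted p = 0.00371 for any difference, against 0.842 with it). Without replicate 1 as well, which held the value of 194, the difference was -1.30 ± 0.26 (adjusted p = 0.0337 for this contrast). Of the 17 genes, 7 were lower at ZT22 than at ZT10 without replicate 2 and 2 without both. Over all genes tested, 172 of 12625 (1.36%) and 47 of 12523 were lower.

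Acly, which makes acetyl-CoA from citrate, was at 862 to 955 RPKTM at ZT4, 1345 to 1497 at ZT10, 1185 to 1635 at ZT16, and 956, 1414 and 884 at ZT22 (adjusted p = 0.189 with 12 libraries and 0.0117 without replicate 2). Elovl6, the elongase that acts after Fasn, was at 97.5, 227 and 139.8 RPKTM at ZT4, at 438, 563 and 371 at ZT10, at 213, 363 and 392 at ZT16, and at 128, 634 and 143 at ZT22 (0.309 and 0.00475). Thrsp, a lipogenic protein, was at 60.7 to 231 RPKTM at ZT4 and 863 to 941 at ZT16, with 113, 683 and 269 at ZT22. ZT16 exceeded ZT4 in both fits, by 2.96 ± 0.56 with 12 libraries (adjusted p = 0.0266 for this contrast), while the test of any difference gave 0.0565 with 12 libraries and 0.00298 without replicate 2. Lpin1, a phosphatidate phosphatase, had another order of times, with 1708, 2444 and 1434 RPKTM at ZT4, 918, 889 and 288 at ZT10, 1121, 1878 and 1559 at ZT16, and 159, 877 and 572 at ZT22 (0.126 and 0.0139). The other genes that passed without replicate 2 were Acacb, Me1, Fads1, Fads2, Agpat2 and Dgat2. Scd1 did not pass in either fit (adjusted p = 0.825 and 0.0599).

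As that comparison leaves ZT22 with 2 libraries, 1 of them being the library rich in Rn45s, the test was also run on ZT4, ZT10 and ZT16 alone. Of 12431 genes, 463 differed (3.72%), and at ZT16 against ZT4 294 were higher (2.37%) and 215 lower (1.73%). Among the 463 were 10 of the 17 fatty acid and triglyceride genes (58.8%). Fasn, Acly, Elovl6 and Thrsp were among these, with adjusted p = 0.00491, 0.0143, 0.0122 and 0.00241. Me1, which makes NADPH, was at 238, 255 and 196 RPKTM at ZT4, 292, 238 and 278 at ZT10, and 233, 283 and 327 at ZT16, and did not pass in these 9 libraries (adjusted p = 0.514).

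In the cholesterol list, 4 of 22 genes passed without ZT22 replicate 2 (18.2%, against 4.20%). Hsd17b7, an enzyme of sterol synthesis, was at 167, 206 and 163 RPKTM at ZT4, at 248, 281 and 315 at ZT10, at 275, 339 and 289 at ZT16, and at 198, 634 and 171 at ZT22. All ZT10 and ZT16 libraries lay above those of ZT4, and ZT16 exceeded ZT4 by 0.75 ± 0.15 (adjusted p = 0.0156 for any difference, against 0.617 with 12 libraries). Stard4, a sterol transfer protein, was also among the 4, with adjusted p = 0.0457. Sqle did not pass (0.183 without the library, 0.782 with it).

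Of the 7 genes of SREBP activation, Insig2 passed with 12 libraries. It was at 2339, 1195 and 1198 RPKTM at ZT4, at 580.3, 601 and 619 at ZT10, at 2206, 1415 and 1118 at ZT16, and at 1588, 7053 and 2603 at ZT22. All ZT10 libraries lay below every other library, and ZT22 exceeded ZT10 by 2.36 ± 0.42 (adjusted p = 0.0499). The call held in 2 of 12 fits that left out 1 library, with an adjusted p of up to 0.180 in the rest, and was 0.00695 without ZT22 replicate 2, where the difference was 1.76. Insig1, its paralog and a target of SREBP, was at 109, 1933 and 153 RPKTM at ZT22 and at 150.3 to 331 in the 9 libraries of the other times, and passed without replicate 2 (adjusted p = 0.0123, against 0.898). Srebf1 and Srebf2, which encode the SREBPs, did not pass with 12 libraries (0.687 and 0.668) or without replicate 2 (0.0651 and 0.395). Srebf1 was at 322 to 1100.1 RPKTM at ZT4, 447 to 1661 at ZT10, 268 to 419.6 at ZT16, and 126, 2129 and 352 at ZT22.

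**Figure D4:**
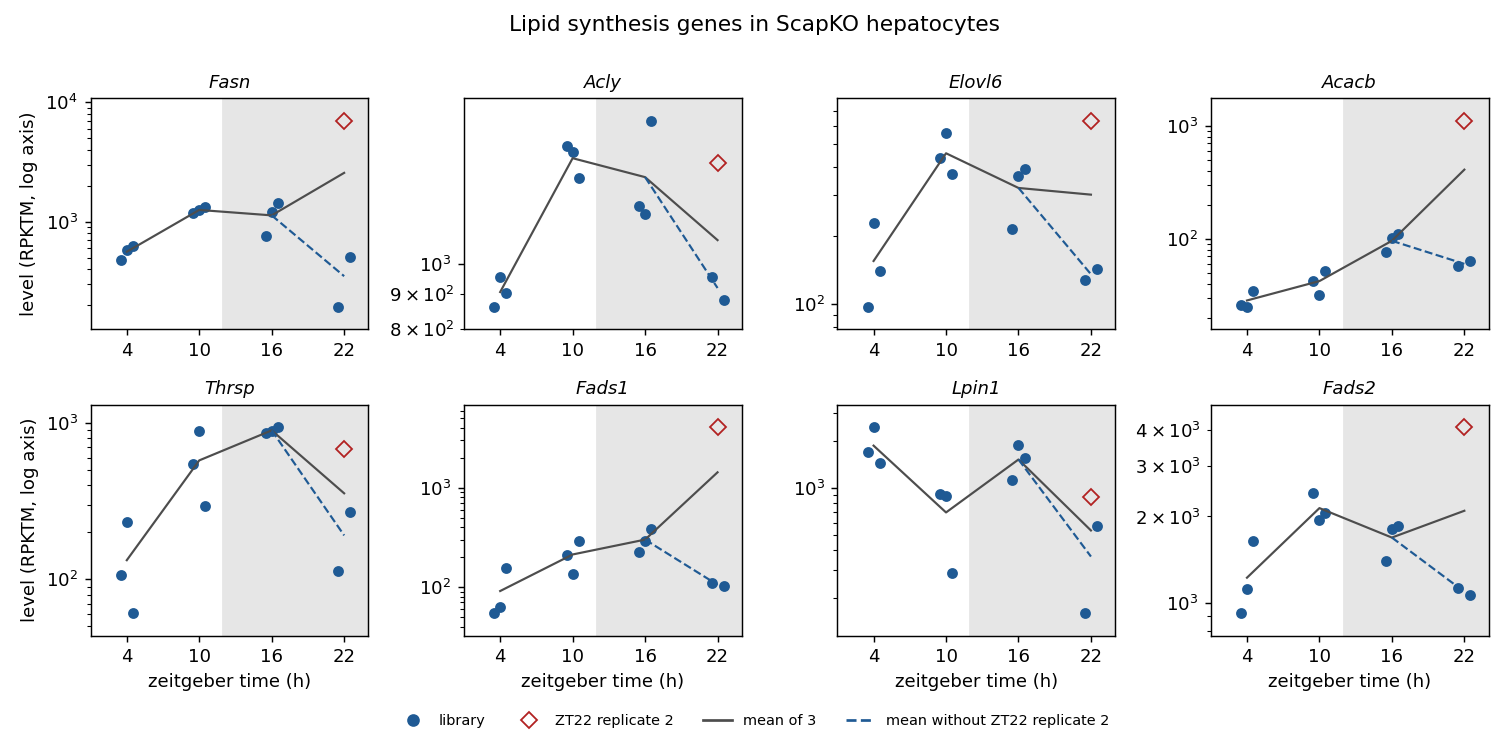
Levels of 8 genes of lipid synthesis (RPKTM, log axes) against zeitgeber time, with points for libraries, a solid line through the arithmetic means of the 3 libraries of a time, a dashed line through the means without ZT22 replicate 2 (red diamond), and the dark phase shaded. For Fasn the ZT22 libraries are at 194, 7006 and 508 RPKTM, so the mean at ZT22 falls from the highest to the lowest of the 4 when replicate 2 is left out.

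Of 11 genes of bile acid and sterol disposal, 2 passed with 12 libraries (18.2%, against 1.29%), Cyp8b1 and Abcg8, and 5 without ZT22 replicate 2 (45.5%, against 4.20%). Cyp8b1, the sterol 12-alpha-hydroxylase that sets the makeup of the bile acid pool, was at 2287, 1051 and 1612 RPKTM at ZT4, at 1115, 1275 and 2568 at ZT10, at 3585, 4344 and 4742 at ZT16, and at 4208, 3918 and 4296 at ZT22. The dark-phase libraries all exceeded the light-phase ones (ZT16 above ZT10 by 1.45 ± 0.29, adjusted p = 0.0160, and 0.0541 to 0.0556 without ZT10 replicate 2 or ZT16 replicate 3). Abcg8, a subunit of the sterol exporter, was at 731 to 1255 RPKTM in the light-phase and at 325 to 607 in the dark-phase libraries (adjusted p = 0.0219, a call held in 6 of 12 fits that left out 1 library, with up to 0.0780 in the rest). Cyp7a1, the rate-limiting enzyme of bile acid synthesis, was at 549.6 to 1112 RPKTM at ZT4 and at 2411 to 4956 at ZT10, and passed without ZT22 replicate 2 (adjusted p = 0.0313, against 0.0829 with it).

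Of 15 genes of glucose, glycogen and insulin response, 4 passed in both fits (26.7%, against 1.29% of all genes with 12 libraries and 4.20% without ZT22 replicate 2). Pklr was at 597, 787 and 591 RPKTM at ZT4, at 1362, 1207 and 982 at ZT10, at 1558, 1507 and 1345 at ZT16, and at 831, 812 and 1018 at ZT22. All ZT4 libraries lay below every other library, and ZT16 exceeded ZT4 by 1.17 ± 0.16 (adjusted p = 0.0103, with the call held in all 12 fits that left out 1 library). Slc2a2, the glucose transporter GLUT2, was at 3665 to 3813 RPKTM at ZT10 and 2006 to 2527 at ZT22 (adjusted p = 0.0402). Ppp1r3b and Ppp1r3c, which target protein phosphatase to glycogen, were at 1748 to 2374 and 314 to 398 RPKTM at ZT4 and at 3935 to 4437 and 889.6 to 909 at ZT16 (adjusted p = 0.0185 and 0.0307). The calls of Slc2a2, Ppp1r3b and Ppp1r3c held in 3, 6 and 3 of 12 such fits, with adjusted p of up to 0.123, 0.0955 and 0.105 in the rest. Slc2a2 did not pass without both ZT22 libraries that stood apart (0.0680), and Pklr did not without the mean-variance trend (0.0924).

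Of 10 genes of xenobiotic metabolism, 3 passed with 12 libraries (Alas1, Por and Cyp2b10, against 1.29% of all genes), and 4 without ZT22 replicate 2 (against 4.20%), with Nr1i3, which encodes CAR, added (adjusted p = 0.0447, against 0.408). Por, which passes electrons to cytochromes P450, was at 3371 to 4007 RPKTM at ZT16 and 1243 to 1994 at ZT22 (adjusted p = 0.0219). Alas1, the first enzyme of heme synthesis, was at 3859 to 4874 RPKTM at ZT4 and 1108 to 2403 at ZT22 (0.0348, and 0.0539 without both ZT22 libraries that stood apart). Asl and Prodh of 13 genes of the urea cycle and amino acid breakdown passed in both fits (15.4%, against 1.29% and 4.20%), both lowest at ZT4 and highest at ZT16 (adjusted p = 0.0170 and 0.0474). Of 9 cell cycle genes, Wee1 and Cdkn1a passed in both fits (22.2%, against 1.29% and 4.20%), and Cdkn1a, the inhibitor p21, was at 1.22 to 15.0 RPKTM at ZT10 and 46.8 to 147 at ZT22 (0.0300). The calls of Por, Alas1, Asl, Prodh and Cdkn1a held in 6, 4, 7, 4 and 5 of 12 fits that left out 1 library, with adjusted p of up to 0.0884, 0.115, 0.0793, 0.187 and 0.0708 in the rest.

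Of 13 heat shock and cold-inducible genes, Hspa5 and Hsph1 passed in both fits (15.4%, against 1.29% and 4.20%). Hspa5, the chaperone BiP of the endoplasmic reticulum, was at 12995, 9655 and 12850.0 RPKTM at ZT4, at 4457, 4232 and 5343 at ZT10, at 4742, 5275 and 4218 at ZT16, and at 5384, 7172 and 6163 at ZT22. The ZT4 libraries exceeded all others, by 1.33 ± 0.17 over ZT10. The F test of any difference gave an adjusted p of 0.00341. This call held in all 12 fits that left out 1 library and was lost without the mean-variance trend (0.0543). Hsph1, a cytosolic chaperone of the Hsp110 family, was at 354 to 687 RPKTM at ZT4 and 196 to 238 at ZT10 (adjusted p = 0.0460, a call held in 4 of 12 such fits, with up to 0.147 in the rest). With 12 libraries and without ZT22 replicate 2 alike, 0 of 15 genes of fatty acid oxidation and PPAR alpha targets and 0 of 15 acute phase genes passed (against 1.29% and 4.20%). With 12 libraries neither did any of 10 immediate early genes or of 4 ligand genes that the study named (against 1.29%). At such shares over all genes, 0 calls in lists this short do not set a list apart. Without both ZT22 libraries that stood apart, the fibrinogen genes Fga, Fgb and Fgg passed among the 15 acute phase genes (adjusted p = 0.0492, 0.0252 and 0.0340), as did Acot1, an acyl-CoA thioesterase, among the 15 of fatty acid oxidation (0.0392), against 3.88% of all genes. At an unadjusted p under 0.05, 1638 genes passed over the whole table.

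**Figure D5:**
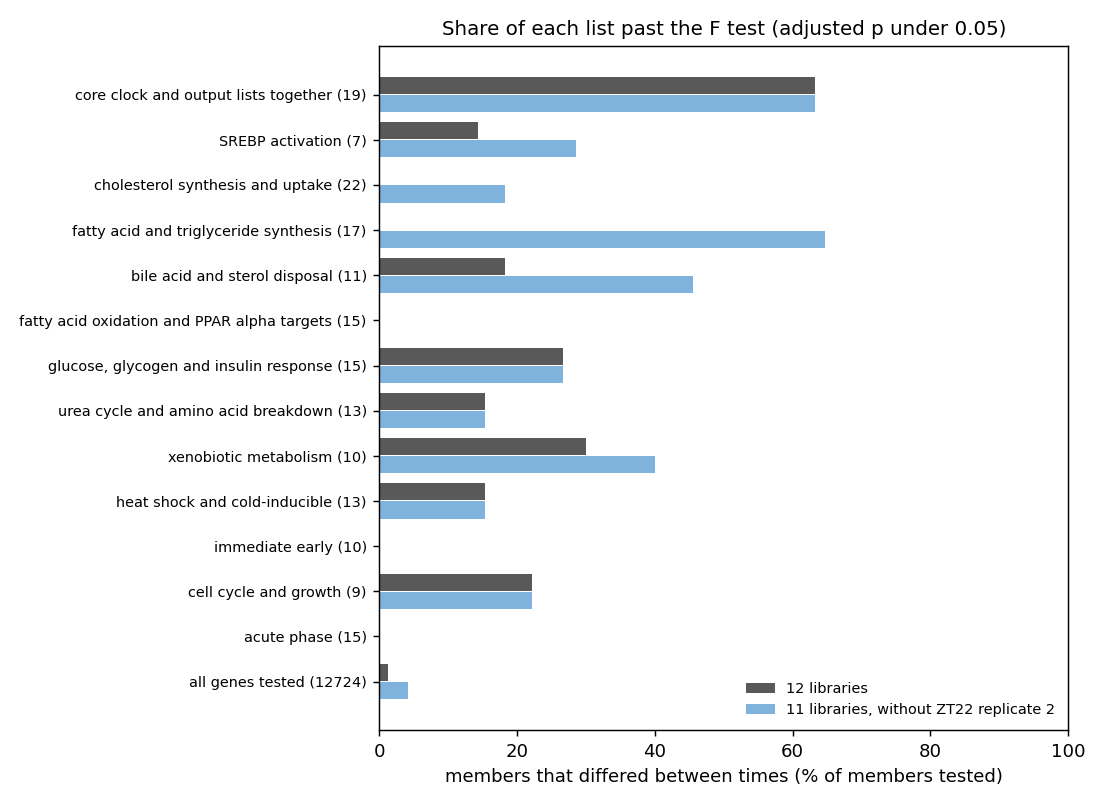
Share of tested genes of each list that passed the limma F test of any difference between the 4 times (percent, bars from 0), with all 12 libraries and without ZT22 replicate 2. The clock and output genes together are at 63.2% in both fits, while fatty acid and triglyceride synthesis goes from 0 of 17 genes to 64.7%.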

How the data were processed

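The authors depleted ribosomal RNA from total RNA of isolated hepatocytes and made libraries with a stranded kit. Reads were mapped by STAR to build mm9 of the mouse genome, and Homer took counts for RefSeq genes. Versions of these tools, and whether counting used the strand, are not given in the sources used here. The deposited values are RPKM multiplied by 10 (RPKTM), which the authors had quantile normalized, so every one of the 12 columns holds the same set of values, library depth is unknown, and a shift of most transcripts would be hidden. The table holds 42322 transcripts of 25095 genes.

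Libraries were grouped by the time in their titles. On log2(RPKTM + 1), limma 3.58.1 (R 4.3.3), with the variance prior following the mean level, gave a moderated F test over the 4 times and 2 two-sided contrasts. Python 3.11.15 (numpy 2.4.6, pandas 2.3.3) did the rest. The code was tested on simulated data. The study called rhythms with JTK_CYCLE on the series entered 2 times, which was rewritten here as an alternative, with periods of 18 h and 24 h and a peak to trough ratio of 1.5. Named genes were the 6 per peak time with the largest difference among those past the F test whose highest time mean exceeded 20 RPKTM, leaving out predicted, clone-named and small RNA symbols, and the members of lists. The members and lists were chosen with earlier results of these data known. Coordinates of genes are 1-based mm9 positions, and those of promoters are RefSeq positions on GRCm38.p6. Controls and the other genotypes, which were normalized in other tables, entered no test. Some members of the lists are counted but not reported singly here.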

Additional observations from a re-analysis of the deposited data

How the results depend on the processing

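Having 3 libraries a time and unknown depth limit these counts. Of the 43 genes that were named or listed and passed the F test, many lost their calls under the alternatives run on them. None turned in direction between the times of highest and lowest mean in the fit of 12 libraries. The filter, the trend and the replicate block leave that difference unchanged. Leaving out 1 library cannot turn it where the 2 times do not overlap. The lack of turns is therefore no sign of robustness. Without the mean-variance trend 35 of the 43 lost the call, and the 8 that kept it were Arntl, Nr1d1, Nr1d2, Dbp, Tef, Slc16a5, Slc34a2 and Pitx3. With no filter 29 lost it and 14 kept it. With a pseudocount of 0.1, 11 lost it, namely Npas2, Klf16, Slc34a2, Id1, G0s2, Hapln1, Cdcp1, Insig2, Prodh, Hsph1 and Cdkn1a, with adjusted p from 0.0510 (Slc34a2) to 0.144 (Npas2). The counts below are genes past the threshold for any difference between the times, for ZT16 minus ZT4 and for ZT22 minus ZT10, which were 164, 115 and 145. They were 55, 33 and 56 with no filter on low values, 297, 211 and 270 with every transcript tested, and 12, 4 and 44 without the mean-variance trend, where higher calls were 2 of 4 for ZT16 minus ZT4 (69 of 115 with it) and went from 57.9% to 70.5% for ZT22 minus ZT10. With the mean macrophage marker level as a covariate they were 478, 226 and 492, and with that of endothelial markers 452, 271 and 288. JTK_CYCLE called 2441 genes with the series entered 2 times and 631 with it entered once. Its threshold of 0.05 was on p-values adjusted over the 7 patterns tried for a gene and not over genes. These 2 counts can therefore not be set against the others. Leaving out 1 library gave 60 to 530, 12 to 343 and 30 to 547. For any difference, the count was 91, 93 and 99 without ZT4 replicates 1, 2 and 3, 60, 79 and 93 without those of ZT10, 99, 85 and 69 without those of ZT16, and 530 and 312 without ZT22 replicates 2 and 3. For ZT16 minus ZT4 it was 46, 39 and 48 without those of ZT4, 72, 65 and 73 without those of ZT10, 35, 34 and 12 without those of ZT16, and 343 without ZT22 replicate 2. For ZT22 minus ZT10 it was 30, 46 and 57 without those of ZT10 (68.4% to 70.0% higher), 93 and 79 without ZT16 replicates 2 and 3, and 347 and 547 without ZT22 replicates 2 and 3. Chosen after seeing the data, leaving out both ZT22 libraries that stood apart gave 486 and 515 for the first 2, and ZT4, ZT10 and ZT16 alone gave 463 and 509. The causes were not tested. With replicate number as a block the counts were 120, 60 and 101. Same-numbered libraries did not deviate together (r from -0.20 to 0.15, 4 of 12 best with their own number), so no pairing by number was seen. With 3 libraries a time, a small shared effect could be missed. Pseudocounts of 0.1 and 5, a minimum of 50 RPKTM and cosine terms moved no count by over 1.5 times.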

Other observations

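Genes of protein folding in the endoplasmic reticulum, a group chosen after the values were seen, had their highest mean at ZT4 in 16 of 18 members. Of all genes tested, 27.3% were highest at ZT4, and the choice of the group itself bears on its share. With all 12 libraries 4 of 18 passed the limma F test (22.2%, against 1.29% of all genes), namely Hspa5, Calr, Creld2 and Derl3. The calls of Calr and Creld2 held in 4 and 3 of 12 fits that left out 1 library, with adjusted p of up to 0.173 and 0.204 in the rest. Without ZT22 replicate 2 there were 11 (61.1%, against 4.20%), adding Hsp90b1, Pdia3, Pdia4, Pdia6, Manf, Hyou1 and Sel1l. These are chaperones, disulfide isomerases and parts of the machinery that clears misfolded proteins. The median difference between the highest and the lowest time mean over the 18 genes was 0.86 on the log2 scale, against 0.52 over all genes tested.

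Small nucleolar and Cajal body RNAs, which guide the modification of other RNAs, were also chosen after their values were seen. Of 116 listed, 49 passed the filter on low values, and of these 12 passed the F test (24.5%, against 1.29% of all genes) with 12 libraries and 19 (38.8%, against 4.20%) without ZT22 replicate 2. An RNA can pass this filter through the libraries of a single time, even where it is low at the others. The filter and the choice of the group therefore bear on these shares and on the times of highest mean. How far they do was not tested. Of the 49, 30 were highest at ZT4 and 18 at ZT22, where 27.3% and 26.5% of all genes tested were highest. Their summed level was 4361, 7045 and 3623 RPKTM at ZT4, 1411, 1442 and 1462 at ZT10, 2206, 1851 and 1738 at ZT16, and 3655, 4709.5 and 3409.5 at ZT22. The libraries of ZT4 and ZT22 lay above all those of ZT10 and ZT16. Lars2, a gene used to check the libraries, moved in part with this group. It took 0.0124% to 0.0190% of the column sum at ZT4, 0.00465% to 0.00610% at ZT10, 0.00470% to 0.0131% at ZT16, and 1.46%, 0.00644% and 0.0181% at ZT22, and it differed between ZT4, ZT10 and ZT16 alone (adjusted p = 0.0207, limma). Its part in the result was not tested.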
